A study of Mus musculus with 12 samples.

Results

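The 35 genes described here encode chaperones, folding enzymes and stress sensors of the unfolded protein response and the heat shock response. They were taken as every row of both expression tables whose gene column equalled a listed symbol, and all 35 were found among 45703 genes. By role they are 9 chaperones and co-factors of the endoplasmic reticulum (ER), 6 lectins and disulfide isomerases, 4 genes of sensing (Ern1, Eif2ak3, Atf6 and the factor Xbp1), 4 genes of ER-associated degradation, 9 cytosolic heat shock genes and 3 mitochondrial chaperones. The 12 libraries, 3 in each of 4 groups, were made from total RNA of C57BL/6 mouse CD4+ T cells. Th17 KO and Th1 KO cells carried Slc2a3-fl/fl Cd4-cre, and Th17 WT and Th1 WT cells were wild type, with no Cre or floxed allele named for them. Slc2a3 encodes the glucose transporter GLUT3. Cre driven by Cd4 regulatory sequences acts from the stage at which thymocytes first express CD4, so the deletion precedes the culture. Naive cells of all 4 groups had been activated through CD3 and CD28 and polarized with Th17 or Th1 cytokines for 3 days. The question addressed is how loss of GLUT3 changes these transcripts in each lineage.

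The ER folds the proteins that a T cell secretes or places on its surface. When unfolded protein accumulates there, IRE1 (Ern1), PERK (Eif2ak3) and ATF6 signal to the nucleus: IRE1 splices the Xbp1 messenger into the form that encodes an active transcription factor, PERK lowers translation and raises ATF4, and ATF6 is cleaved into a transcription factor. XBP1 and ATF6 raise ER chaperones, disulfide isomerases and the degradation machinery by binding ER stress elements, whereas HSF1 drives cytosolic chaperones through heat shock elements. Activated T cells raise ER chaperones as they grow and begin to secrete cytokines.

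The ER stress element was searched because it is the textbook binding site of this response. Upstream sequence was held for 27 of the 35 genes in the promoter table of RefSeq (build GRCm38.p6), and 250 bases before each start were read on both strands for CCAAT and CCACG with any 9 bases between them. The element stood upstream of 8 of these 27 genes (29.6%), against 35 of 27025 genes in the table (0.130%). Each element is shown 5′ to 3′ on the strand of its gene with 6 bases on each side, its capitals marking the element, and positions counting back from the base before the start. Where it begins with CGTGG it reads on the opposite strand.
Hspa5 (chr2:34772019-34772049, plus strand, -65 to -47): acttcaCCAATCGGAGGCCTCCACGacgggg
Hsp90b1 (chr10:86705527-86705557, minus strand, -107 to -89): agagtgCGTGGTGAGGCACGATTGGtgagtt
Hsp90b1 (chr10:86705632-86705662, minus strand, -212 to -194): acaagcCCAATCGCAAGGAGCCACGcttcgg
Dnajc3 (chr14:118937821-118937851, plus strand, -105 to -87): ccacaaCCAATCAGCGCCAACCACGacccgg
Creld2 (chr15:88819514-88819544, plus strand, -126 to -108): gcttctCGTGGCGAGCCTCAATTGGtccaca
Calr (chr8:84847069-84847099, minus strand, -162 to -144): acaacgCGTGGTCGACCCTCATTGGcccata
Canx (chr11:50325794-50325824, minus strand, -145 to -127): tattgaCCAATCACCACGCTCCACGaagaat
Pdia6 (chr12:17266485-17266515, plus strand, -98 to -80): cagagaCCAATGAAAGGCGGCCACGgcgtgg
Syvn1 (chr19:6046526-6046556, plus strand, -44 to -26): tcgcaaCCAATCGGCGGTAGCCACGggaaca

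Herpud1 held instead the shorter ER stress element II, ATTGG and CCACG with any 1 base between them, which stood upstream of 10 of the 27025 genes (0.0370%) and of 1 of the 27 (3.70%). The heat shock element was searched on both strands as 3 alternating units of GAA and TTC, with any 2 bases between neighbours, and stood upstream of 139 genes (0.514%). Among the 27 genes it was found for Hspd1 and Hspe1 (7.41%), which lie on opposite strands of chromosome 1 and share the same site, where both forms overlap within 18 bases. For Hspd1 the site lay at -144 to -127 from the start used in the search. The annotated end of this minus-strand gene, 55088243, lies beyond the site, so by that annotation the site is inside Hspd1. The Herpud1 site and this shared site are shown because their genes had changes of the opposite sign to most ER chaperones, with the elements in capitals. Of the cytosolic heat shock genes, 0 of the 5 with upstream sequence had a match (Hspa1a, Hspa1b, Hsph1, Dnaja1 and Dnajb1). For Hsf1, Hspa8, Hsp90aa1 and Hsp90ab1 no upstream sequence was held. The search required exact units, so elements that depart from them were not found. A match is a string of letters and was not shown to be bound here.
Herpud1 (chr8:94386371-94386393, plus strand, -52 to -42): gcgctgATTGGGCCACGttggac
Hspe1 (chr1:55088053-55088082, plus strand, -89 to -72): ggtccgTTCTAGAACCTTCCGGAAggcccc

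Values are TPM, a transcript abundance corrected for exon length and for the total of each library. Reads recovered from the tables numbered 16596283 to 28496606 per library, which puts 3 reads on 1 kb of exon at 0.19 to 0.437 TPM (a limit for counting error alone, because PCR copies of a molecule count as separate reads). Slc2a3 stood at 3.30 to 18.7 TPM in Th17 KO against 44.6 to 379 TPM in Th17 WT, and at 4.49 to 7.97 TPM in Th1 KO against 64.7 to 398 TPM in Th1 WT. Cd4 and Cd3e, which mark the labelled cell type, were present in all 12 libraries. Th17 KO replicate 2 stood apart: over all tested genes the typical gap between it and the mean of the remaining replicates was 0.634 (median absolute log2 value), and 0.132 to 0.428 in the remaining 11 libraries. The labels do not say that replicates were separate animals or cultures, so the p-values speak for the spread among libraries, which may be technical.

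Loss of GLUT3 went with more transcript of many ER folding genes in Th1 cells and with less of 2 cytosolic chaperones, Hspa8 and Hsp90ab1. Neither of these lower calls held under all settings tried. Each gene was tested with limma on log2(TPM + 1), a scale that understates the change of low genes, with p-values adjusted over all genes tested (Benjamini-Hochberg, threshold 0.05). In Th1 KO against Th1 WT, 15 of the 35 genes were higher and 2 lower, where 17.6% of all 13487 genes tested were higher and 13.7% lower. In Th17 KO against Th17 WT, 2 of 35 were higher and 0 lower, where 4.60% of 13823 genes were higher and 2.70% lower. At an unadjusted p under 0.05 there were 11 of the 35 in Th17 and 19 in Th1. Over all genes tested there were 3453 of 13823 in Th17 and 5792 of 13487 in Th1. Limma's voom on the recovered reads called 0 of the 35 higher and 1 lower in Th17 (Hspa8). With the replicate number as a block, as the Th17 libraries were taken to pair by number from their correlations alone, 1 gene was called in Th17. With 1 library left out, the Th17 count was 0 without KO replicate 1 or 3 or WT replicate 2 or 3, 1 without WT replicate 1 and 7 without KO replicate 2. In Th1 it was 12 to 19, and without the filter on low TPM 13 were higher and 0 lower there. The median log2 fold change of the 35 genes was 0.47 in Th17, against 0.04 for all genes tested, and 0.36 in Th1, against 0.03. Without Th17 KO replicate 2 the Th17 median was 0.26 (all genes -0.11), and without Th1 WT replicate 1 the Th1 median was 0.65 (all genes 0.05). All libraries of KO lay above all of WT for 12 genes in Th17 (18.5% of all genes tested) and 16 in Th1 (26.3%), and below for 3 in Th17 (18.2%) and 2 in Th1 (20.8%). Both genes called in Th17, Xbp1 and Pdia3, were also higher in Th1. From bulk RNA, more cells of a kind and more RNA per cell cannot be told apart.

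**Figure D1:**
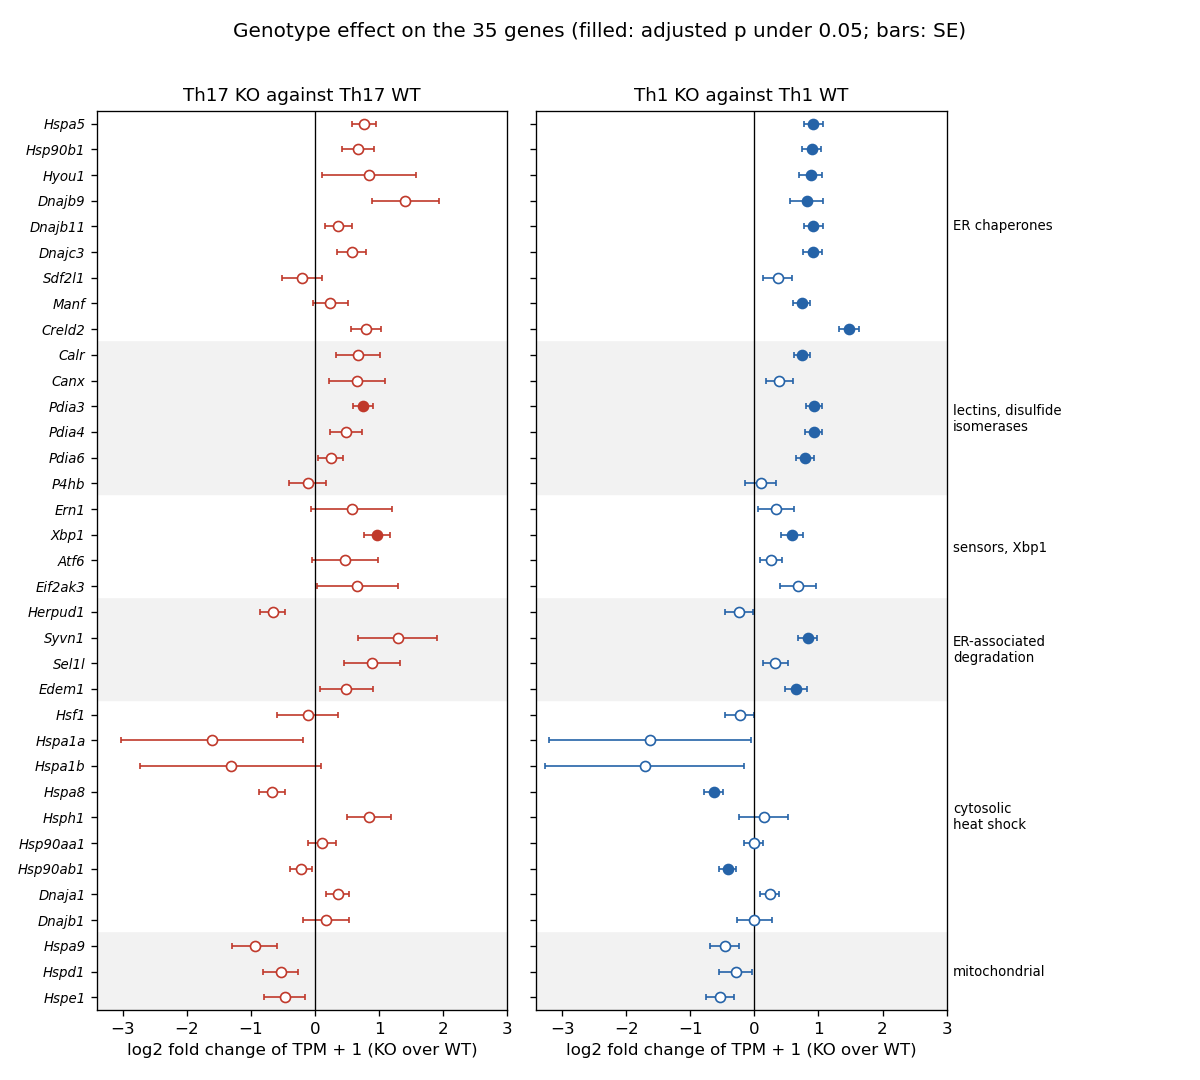
Log2 fold change of TPM + 1, KO over WT, of the 35 genes in Th17 (left) and Th1 (right), grouped by role from top to bottom; bars are the standard error of limma's fit on 3 against 3 libraries and filled points have an adjusted p under 0.05. In Th1 the upper, ER groups lie mostly right of 0 with 15 filled points, while the mitochondrial group at the foot lies left of 0 in both lineages with none filled.

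The ER chaperones were the group with the most calls. Their summed level was 3585 to 3836 TPM in Th1 KO against 1907 to 2238 TPM in Th1 WT, and 8 of the 9 genes were higher (median log2 fold change 0.89). Hspa5 encodes BiP, the Hsp70 of the ER lumen, and it stood at 1251, 1398 and 1526 TPM in Th1 KO, against 861, 646 and 707 TPM in Th1 WT. The groups did not overlap, and the log2 fold change was 0.92 ± 0.15 (SE, limma adjusted p = 0.00212, 3 against 3 libraries). In Th17 it stood at 1211, 1339.5 and 1082 TPM in KO and 734, 796 and 619 TPM in WT. These groups were apart as well, but the change of 0.76 ± 0.19 missed the threshold (limma adjusted p = 0.0575).

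Creld2, a disulfide isomerase-like protein induced by ER stress, had the largest called change among the 35 genes in Th1. It stood at 246, 255 and 240.3 TPM in Th1 KO, against 71.5, 98.0 and 96.6 TPM in Th1 WT, with a log2 fold change of 1.48 ± 0.16 (limma adjusted p = 0.000352). The KO libraries lay within a narrow range far above the WT libraries. In Th17 the values were 167, 181 and 164 TPM in KO and 70.8, 118 and 113 TPM in WT, a change of 0.79 ± 0.24 with no overlap (limma adjusted p = 0.0949).

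Hsp90b1 (GRP94), the Hsp90 of the ER, stood at 891, 857 and 916 TPM in Th1 KO against 508, 397 and 542 TPM in Th1 WT, 0.89 ± 0.15 on the log2 scale (limma adjusted p = 0.00231). In Th17 it stood at 623, 974 and 576 TPM in KO and 472, 489 and 374 TPM in WT, and the change of 0.67 ± 0.25 was not called (limma adjusted p = 0.156). Replicate 2 was the high one of the Th17 KO libraries, as for many genes below. Dnajb11 (ERdj3), a BiP co-chaperone, stood at 132, 146 and 136 TPM in Th1 KO and 64.1, 71.0 and 83.1 TPM in Th1 WT (0.92 ± 0.15, limma adjusted p = 0.00197). Its Th17 values were 87.4, 84.9 and 80.5 TPM in KO and 52.1, 77.7 and 69.3 TPM in WT, a change of 0.36 ± 0.21 that was not called (limma adjusted p = 0.33). The co-chaperone Dnajc3 (P58IPK), which also restrains PERK, averaged 71.5 ± 2.98 TPM in Th1 KO and 37.7 ± 3.94 TPM in Th1 WT (SD, n = 3 each), with a log2 fold change of 0.91 (limma adjusted p = 0.00181).

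The secreted factor Manf stood at 731, 741 and 628 TPM in Th1 KO, against 393, 405 and 462 TPM in Th1 WT (0.74 ± 0.14 on the log2 scale, limma adjusted p = 0.00375). In Th17 KO it was at 516, 299 and 513 TPM, against 311, 353 and 441 TPM in Th17 WT, so that those groups overlapped. Manf has a short transcript, and here replicate 2 was the low library of Th17 KO. Hyou1 (GRP170), the exchange factor of BiP, averaged 14.2 ± 2.27 TPM in Th1 KO and 7.24 ± 1.01 TPM in Th1 WT (limma adjusted p = 0.00649). Dnajb9 (ERdj4), which recruits BiP to IRE1, was low at 5.45, 3.04 and 3.37 TPM in Th1 KO and 2.62, 1.12 and 1.72 TPM in Th1 WT (limma adjusted p = 0.0388), a call that was lost without KO replicate 1 or 3 or WT replicate 2 or 3. Sdf2l1, an ER-resident partner of Dnajb11, was the chaperone that was not called in Th1, at 249, 342 and 297 TPM in KO and 164, 246 and 295 TPM in WT.

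In Th17, 5 of the 9 ER chaperones had an unadjusted p under 0.05, as had 3453 of all 13823 genes tested. By limma on log2(TPM + 1) 0 of the 9 chaperones were called, and 0 by voom. All but Sdf2l1 had a positive change, the median was 0.67, and 6 of 9 had every KO library above every WT library (18.5% of all genes tested). Without KO replicate 2 the changes were -0.02 for Hyou1, 0.77 for Dnajb9 and 0.44 for Hsp90b1, against 0.85, 1.41 and 0.67 with it. The summed level was 2729 to 3239 TPM in Th17 KO, against 1829.9 to 2200.4 TPM in Th17 WT.

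**Figure D2:**
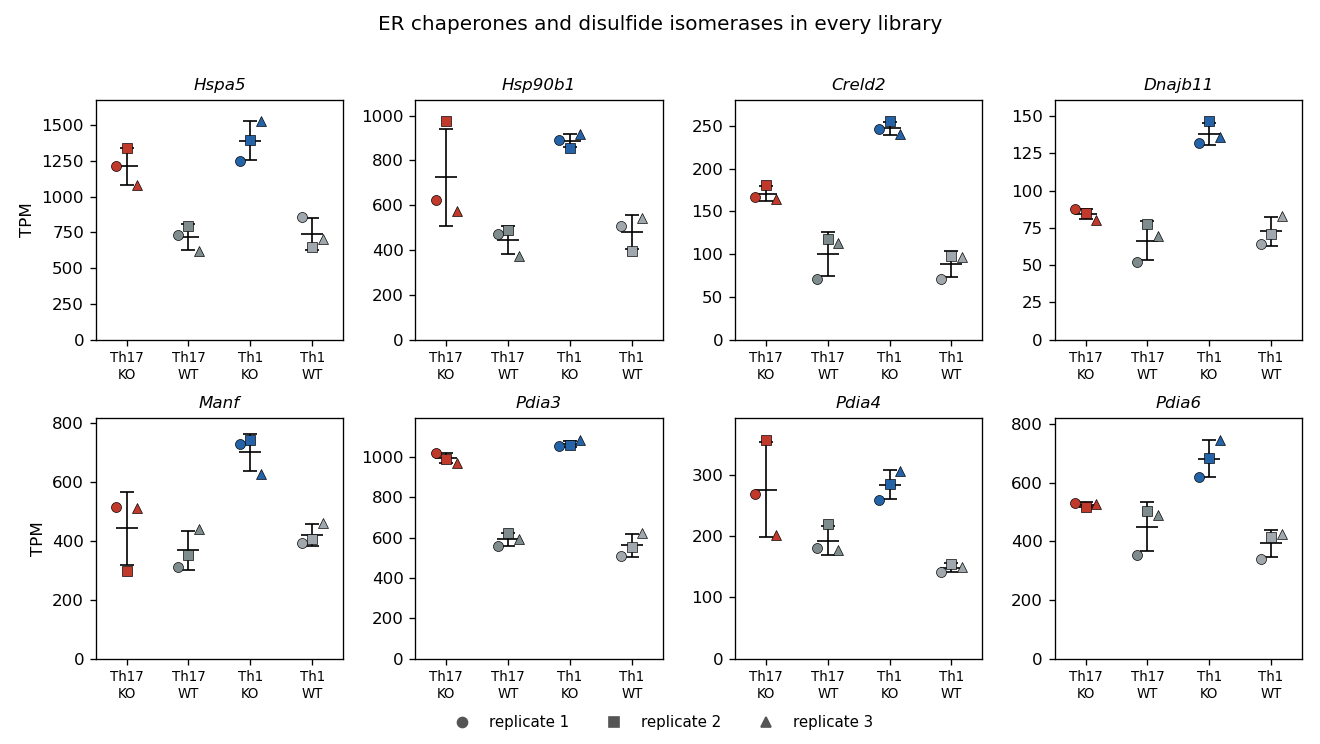
TPM of 8 ER chaperones and disulfide isomerases in each of the 12 libraries, with the mean (bar) and SD (whisker) of each group of 3; marker shapes give the replicate number and the vertical axes start at 0. In Th1 every KO library lies above every WT library in all 8 panels, while in Th17 replicate 2 of KO departs from the other replicates for Hsp90b1, Pdia4 and Manf.

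Among lectins and disulfide isomerases 4 of 6 were higher in Th1 KO and 1 of 6 in Th17 KO. Pdia3 (ERp57), the isomerase that works with calnexin and calreticulin and on MHC class I, changed in both lineages. It stood at 1019, 989 and 971 TPM in Th17 KO, against 557, 622 and 595 TPM in Th17 WT, 0.75 ± 0.16 on the log2 scale (limma adjusted p = 0.0385). In Th1 it stood at 1053, 1059 and 1082 TPM in KO and 509, 551 and 622 TPM in WT, 0.93 ± 0.13 (limma adjusted p = 0.000971). Both groups of KO libraries were tight and lay well above both groups of WT libraries. The Th17 call needed every library except KO replicate 2, with adjusted p-values of up to 0.193 over all settings and changes of 0.62 to 0.79. With the replicate number as a block its adjusted p was 0.0681.

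Pdia4 (ERp72) stood at 259.9, 285 and 307 TPM in Th1 KO against 142, 155 and 150.3 TPM in Th1 WT (0.93 ± 0.13, limma adjusted p = 0.00116). Pdia6 (P5), which also attenuates IRE1, stood at 621, 683 and 745 TPM in Th1 KO against 342, 414 and 426 TPM in Th1 WT (0.80 ± 0.14, limma adjusted p = 0.00344). Calreticulin (Calr) averaged 492 ± 14.6 TPM in Th1 KO and 294 ± 28.8 TPM in Th1 WT (limma adjusted p = 0.0031). Its membrane-bound relative calnexin (Canx) was not called at 137, 129.8 and 157 TPM in Th1 KO and 123, 77.5 and 129 TPM in Th1 WT, though the groups were apart. P4hb (PDI), the most abundant isomerase in WT, was not called in either lineage. It was highest in replicate 1 of both WT groups, at 766, 1088 and 653 TPM in Th17 KO and 1160.3, 922 and 649 TPM in Th17 WT, and at 641, 624 and 858 TPM in Th1 KO and 959, 575 and 507 TPM in Th1 WT. In Th17, Calr, Canx, Pdia4 and Pdia6 had changes of 0.67, 0.66, 0.49 and 0.24 on the log2 scale, none of them called. Without KO replicate 2 the changes of Calr, Canx and Pdia4 were 0.27, 0.12 and 0.28.

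Of the sensing genes, Xbp1 was higher in KO in both lineages. It stood at 647, 559.9 and 689 TPM in Th17 KO, against 381, 329 and 265 TPM in Th17 WT, a log2 fold change of 0.97 ± 0.20 (limma adjusted p = 0.0348). In Th1 it stood at 481, 412 and 535 TPM in KO and 389, 294 and 277 TPM in WT, 0.58 ± 0.17 (limma adjusted p = 0.0315). Neither pair of groups overlapped. A TPM value per gene does not separate the spliced form of Xbp1 from the unspliced one. Leaving out KO replicate 1 or 3 or WT replicate 2 or 3 ended the call in either lineage, with changes of 0.83 to 1.09 in Th17 and of 0.48 to 0.73 in Th1 over all settings.

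The sensors themselves were weakly expressed and not called. Ern1 (IRE1) stood at 0.859, 6.85 and 1.61 TPM in Th17 KO and 3.58, 0.697 and 0.495 TPM in Th17 WT, and at 2.67, 2.25 and 2.34 TPM in Th1 KO and 3.14, 0.807 and 1.64 TPM in Th1 WT. Eif2ak3 (PERK) stood at 10.7, 11.1 and 10.9 TPM in Th1 KO against 11.2, 5.10 and 4.48 TPM in Th1 WT, so that 1 WT library reached the KO level (limma adjusted p = 0.101). Without Th1 WT replicate 1, both were called higher in Th1 KO, Eif2ak3 with an adjusted p of 0.00154 and Ern1 with 0.0414. Atf6 averaged 11.9 ± 1.54 TPM in Th1 KO and 9.79 ± 1.39 TPM in Th1 WT, and was not called.

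Degradation genes did not move as a block. Syvn1 (HRD1), the ubiquitin ligase, stood at 12.5, 13.2 and 14.1 TPM in Th1 KO against 7.60, 6.57 and 6.90 TPM in Th1 WT (0.83 ± 0.15, limma adjusted p = 0.00356). Edem1, which hands misfolded glycoproteins to the ligase, stood at 77.4, 84.1 and 82.0 TPM in Th1 KO against 65.4, 43.1 and 48.1 TPM in Th1 WT (0.65 ± 0.18, limma adjusted p = 0.0228), and lost its call when any library but WT replicate 1 was left out, with adjusted p-values of up to 0.224 over all settings. Sel1l, the partner of Syvn1, averaged 26.4 ± 1.04 TPM in Th1 KO and 21.3 ± 5.77 TPM in Th1 WT and was not called.

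Herpud1, the membrane adaptor of the Syvn1 complex, had the opposite sign. It stood at 138, 158 and 132 TPM in Th17 KO, against 251, 242 and 188 TPM in Th17 WT, with no overlap and a log2 fold change of -0.66 ± 0.19 (limma adjusted p = 0.0901). In Th1 it stood at 135, 129.7 and 152 TPM in KO and 236, 147 and 127 TPM in WT, where WT replicate 1 was the high library and the change of -0.24 was not called. This gene carries the shorter element in the sequence printed above.

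The cytosolic heat shock genes held 0 calls upward and 2 downward in Th1, and 0 calls in Th17. There voom called 1 of the 9 lower, and 2 had an unadjusted p under 0.05 (3453 of all 13823 genes tested). Their summed level was 3617 to 4143 TPM in Th1 KO against 4751 to 6195 TPM in Th1 WT, and 3931 to 4269.6 TPM in Th17 KO against 4845 to 5597 TPM in Th17 WT. Most of that sum was Hspa8 and Hsp90ab1. Hspa8 (HSC70), the constitutive cytosolic Hsp70, was lower in Th1 KO at 1372, 1632 and 1649 TPM, against 2812, 2253 and 2185 TPM in Th1 WT, -0.64 ± 0.15 on the log2 scale (limma adjusted p = 0.0107). The call was lost without KO replicate 1 (adjusted p = 0.0597) and without the filter on low TPM (adjusted p = 0.0534). In Th17 it stood at 1433, 1690.3 and 1229.6 TPM in KO and 2626, 2211 and 2083 TPM in WT, -0.67 ± 0.21 (limma adjusted p = 0.0999). The groups did not overlap in either lineage.

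Hsp90ab1, the constitutive cytosolic Hsp90, stood at 1388, 1421 and 1621 TPM in Th1 KO against 2154, 1775 and 1994 TPM in Th1 WT (-0.42 ± 0.13, limma adjusted p = 0.0399). The call was lost with the replicate block, without the filter and when any library but WT replicate 2 was left out (adjusted p up to 0.157). In Th17 its values were 1701, 1835 and 1923 TPM in KO and 2191, 2155 and 2015 TPM in WT (limma adjusted p = 0.465). Its inducible paralog Hsp90aa1 averaged 648 ± 17.5 TPM in Th1 KO and 659.5 ± 107 TPM in Th1 WT, a log2 difference of -0.01 ± 0.15. As shares of the summed TPM of the 35 genes, Hspa8 held 12.4% in Th1 KO and 21.5% in Th1 WT, and Hspa5 held 11.2% in Th1 KO and 6.57% in Th1 WT.

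The inducible Hsp70 genes Hspa1a and Hspa1b were low in 10 libraries and high in 2. Hspa1a stood at 1.03, 1.35 and 0.544 TPM in Th17 KO and 79.4, 0.639 and 0.59 TPM in Th17 WT. In Th1 it stood at 2.41, 0.853 and 1.58 TPM in KO and 191, 0.651 and 0.537 TPM in WT. Both high libraries are replicate 1 of a WT group. Their coding sequences are nearly identical, so reads may be split between them, and single values are uncertain; summed, both genes reached 159 TPM in Th17 WT replicate 1 and 378 TPM in Th1 WT replicate 1. In the other 10 libraries the sum lay between 1.18 and 4.47 TPM, 1.54 to 4.47 TPM in the KO libraries and 1.18 to 1.39 TPM in the remaining WT libraries. The fitted log2 fold changes of Hspa1a, -1.61 ± 1.42 in Th17 and -1.63 ± 1.57 in Th1, rest on those libraries and were not called.

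Among the other cytosolic heat shock genes, Hsph1 and Dnajb1 were also high in Th1 WT replicate 1, while Hsp90aa1 and Dnaja1 were not, at 0.914 and 1.01 times the mean of the other replicates there. Hsph1 (HSP110), an Hsp70 exchange factor, stood at 27.6, 34.0 and 40.1 TPM in Th1 KO and 59.5, 17.1 and 26.9 TPM in Th1 WT. Dnajb1 (HSP40), the stress-inducible co-chaperone, stood at 33.5, 33.3 and 38.3 TPM in Th1 KO and 57.6, 27.5 and 26.8 TPM in Th1 WT. In replicate 1 of Th1 WT the levels of Hsph1 and Dnajb1 were 2.70 and 2.12 times that mean, and in Th17 WT 1.06 and 1.41 times. Replicate 1 was the highest library of both WT groups for 15 of the 35 genes, and Slc2a3 was also highest there, at 379 TPM in Th17 WT and 398 TPM in Th1 WT. The share of all genes with that pattern was not counted. Over all genes past the TPM filter, deviations of replicate 1 from its group mean correlated at 0.72 between the WT groups. The pattern was thus not shown to be particular to the 35 genes. Without Th1 WT replicate 1, 18 of the 33 genes then tested were higher and 1 lower in Th1 KO. Over all 13181 genes of that fit, 2599 were higher and 1988 lower. Hsf1, the regulator, averaged 11.7 ± 1.73 TPM in Th1 KO and 14.2 ± 4.34 TPM in Th1 WT. The co-chaperone Dnaja1 averaged 119.7 ± 2.50 TPM in Th1 KO and 102 ± 16.1 TPM in Th1 WT, and neither was called.

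**Figure D3:**
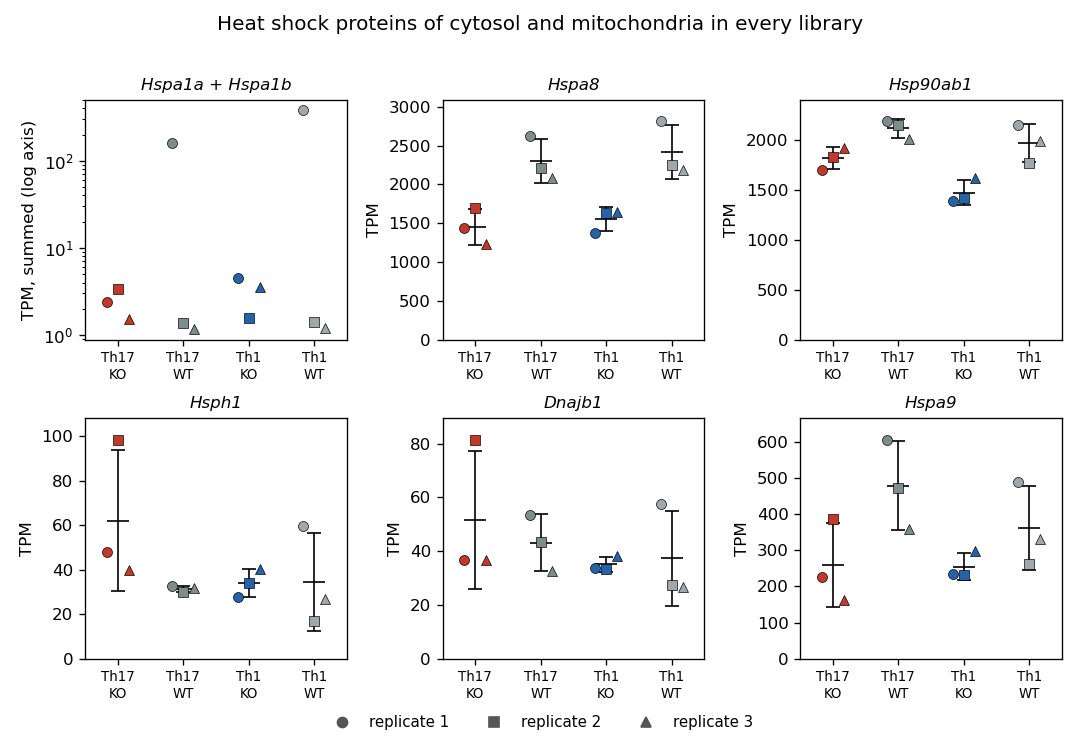
TPM of heat shock genes in each of the 12 libraries; the first panel sums Hspa1a and Hspa1b on a log axis without means, and the others show the mean (bar) and SD (whisker) of 3 libraries on axes that start at 0. Replicate 1 of Th17 WT and of Th1 WT holds 159 and 378 TPM of the summed pair while the other 10 libraries hold 1.18 to 4.47 TPM, and Hspa8 lies lower in every KO library than in every WT library of its lineage.

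The 3 mitochondrial chaperones had negative changes in both lineages and 0 calls by limma on log2(TPM + 1). At an unadjusted p under 0.05 there was 1 of 3 in each lineage (all genes: 3453 of 13823 in Th17 and 5792 of 13487 in Th1). Voom called 0 of them in Th17 and 1 lower in Th1. Hspa9 (mortalin), the mitochondrial Hsp70, stood at 226, 387 and 163 TPM in Th17 KO and 605, 474 and 359 TPM in Th17 WT (-0.95 ± 0.35, limma adjusted p = 0.152). In Th1 it stood at 233, 233 and 297 TPM in KO and 489, 262 and 332 TPM in WT (-0.47 ± 0.23). The WT replicates spread as widely as the difference. Hspd1 (HSP60) averaged 238 ± 23.3 TPM in Th1 KO and 306 ± 122 TPM in Th1 WT, and its partner Hspe1 (HSP10) 222 ± 26.2 TPM in Th1 KO and 333 ± 98.2 TPM in Th1 WT. The annotated ends of this pair overlap, the Hspe1 start at 55088148 lying before the Hspd1 end at 55088243 on chromosome 1, and the library kit does not mark strand, so reads in the overlap cannot be assigned. These are the genes with the heat shock elements printed above.

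The distance of Th17 KO replicate 2 from the other libraries of its group varied with exon length. Over all tested genes its median log2 difference was -0.43 under 1500 bases of exon, 0.30 from 1500 to 3500 bases and 0.98 from 3500 bases on, and over the 35 genes it was -0.43 (n = 4), 0.41 (n = 20) and 1.60 (n = 11). It was the highest Th17 KO library for 25 of the 35 genes and for 10 of the 11 longest. Syvn1, for example, stood at 16.0, 77.0 and 14.9 TPM in Th17 KO against 8.24, 13.9 and 9.57 TPM in Th17 WT, Hyou1 at 10.5, 65.8 and 9.45 TPM against 6.47, 16.3 and 9.61 TPM, and Canx at 144, 420.4 and 132 TPM against 124, 145 and 112 TPM.

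Without this library, 7 of the 32 genes then tested were called in Th17 instead of 2. Higher were Xbp1 (1.05 ± 0.20, limma adjusted p = 0.0125), Pdia3 (0.75, adjusted p = 0.0185), Hspa5 (0.68, adjusted p = 0.0366) and Dnajb9 (0.77, adjusted p = 0.0351). Lower were Hspa9 (-1.28 ± 0.26, limma adjusted p = 0.0155), Hspa8 (-0.79, adjusted p = 0.0223) and Herpud1 (-0.73, adjusted p = 0.0374). Over all genes 2158 of 13321 tested were called without it (1034 higher and 1124 lower), against 1009 of 13823 with it (636 higher and 373 lower). The changes of the sensors shrank to -0.09 for Eif2ak3 and -0.12 for Atf6, whose positive values with all libraries, 0.66 and 0.47, rested on replicate 2.

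**Figure D4:**
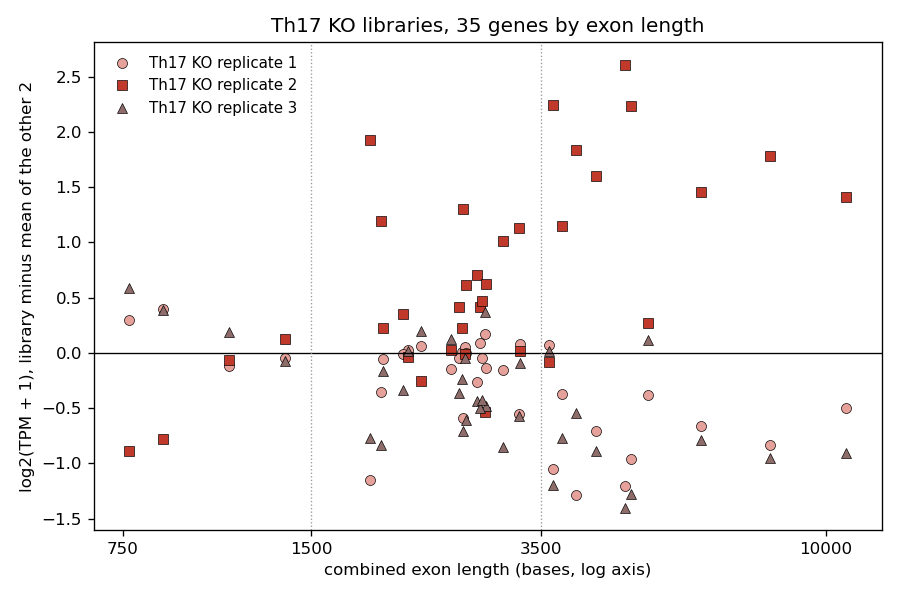
Difference in log2(TPM + 1) between each Th17 KO library and the mean of the other 2 Th17 KO libraries for the 35 genes, against combined exon length on a log axis; dotted lines mark 1500 and 3500 bases. The squares of replicate 2 have a median of -0.43 under 1500 bases and of 1.60 from 3500 bases on.

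The genotype effect was not shown to differ between lineages for any of the 35 genes. The test of the difference, Th17 effect minus Th1 effect over all 12 libraries, called 0 of 35 in either direction. Voom also called 0. Over all 14579 genes tested 0.350% were higher, 0.288% lower, and 930 had an unadjusted p under 0.05. Of the 35, 3 genes had such a p. They were Creld2 (-0.69 ± 0.28, limma adjusted p = 0.649), Dnajb11 (-0.56 ± 0.24, adjusted p = 0.715) and Pdia6 (-0.55 ± 0.23, adjusted p = 0.682), each with the larger positive change in Th1. Of the 9 ER chaperones 8 had a smaller effect in Th17 than in Th1, the exception being Dnajb9. Without Th17 KO replicate 2 the Dnajb9 change was 0.77 in Th17, against 0.82 in Th1. For Hspa8 the effects were nearly equal, with a difference of -0.04 ± 0.24.

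Between lineages of the same genotype few of the 35 genes were called. In Th17 KO against Th1 KO, 0 genes were higher and 1 lower, where 3.35% of all genes were higher and 2.56% lower. At an unadjusted p under 0.05 there were 7 of the 35, and 2997 of all 14579 genes tested. All Th17 KO libraries lay above all Th1 KO libraries for 4 genes (18.8% of all genes tested) and below for 7 (10.8%), of which 4 were ER chaperones. The summed level of the ER chaperones was 2729 to 3239 TPM in Th17 KO and 3585 to 3836 TPM in Th1 KO, without overlap. Syvn1 and Sel1l lay above in Th17 KO, by 0.96 ± 0.48 and 0.94 ± 0.36 on the log2 scale, and were not called (limma adjusted p = 0.283 and 0.171); both were highest in Th17 KO replicate 2. The called gene was Dnajb11, at 84.3 ± 3.51 TPM in Th17 KO and 138 ± 7.65 TPM in Th1 KO (-0.70 ± 0.17, limma adjusted p = 0.0305), and the call was lost when any KO library other than Th17 KO replicate 2 was left out, with adjusted p-values of up to 0.14. Manf stood next, -0.70 ± 0.22 (limma adjusted p = 0.0876). Without Th17 KO replicate 2, Edem1 was lower as well (-0.82, limma adjusted p = 0.0364). In Th17 WT against Th1 WT 0 of 35 genes were called by limma on log2(TPM + 1) or by voom. With limma 1.85% of all genes were higher and 1.78% lower. At an unadjusted p under 0.05 there was 1 of the 35 (Hsp90aa1), and 2134 of all 14579 genes tested. Hspa5, for example, averaged 716 ± 89.7 TPM in Th17 WT and 738 ± 111 TPM in Th1 WT.

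Genes that share the ER pathway but were not among the 35 were taken from 5 further lists, of which 133 of 134 entries matched. Their counts stand beside the shares over all genes already given, 4.60% higher and 2.70% lower in Th17 KO and 17.6% higher and 13.7% lower in Th1 KO. Of 28 other genes of ER folding and degradation, 1 was higher in Th17 KO and 16 in Th1 KO, with 0 lower in either. Uggt1, the glucosyltransferase that recognises unfolded glycoproteins, averaged 61.5 ± 41.1 TPM in Th17 KO and 13.6 ± 2.25 TPM in Th17 WT (1.92 on the log2 scale, limma adjusted p = 0.0446). In Th1, Calu, a calcium-binding ER protein, averaged 122 ± 17.7 TPM in KO and 58.8 ± 8.70 TPM in WT (1.04, limma adjusted p = 0.00214). The disulfide reductase Dnajc10 averaged 56.8 ± 5.89 TPM in Th1 KO and 27.5 ± 2.34 TPM in Th1 WT (1.02, limma adjusted p = 0.00136), and Hspa13 rose by a similar 0.99. Of 29 genes of translocation, glycosylation and ER retrieval, 0 were called in Th17 KO, while 12 were higher and 1 lower in Th1 KO. The signal recognition particle receptor Srpr averaged 73.2 ± 4.35 TPM in Th1 KO and 32.8 ± 1.60 TPM in Th1 WT (1.14, limma adjusted p = 0.000558). The oligosaccharyltransferase subunit Ddost, the translocon channel Sec61a1 and the cargo receptor Tmed10 rose by 0.73, 0.79 and 0.53 on the log2 scale.

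Stress regulators went in both directions, with 1 higher and 3 lower of 17 tested in Th17 KO and 5 higher and 1 lower in Th1 KO. Wfs1, an ER membrane protein mutated in Wolfram syndrome, stood at 4.68, 13.8 and 4.38 TPM in Th17 KO against 1.26, 0.627 and 0.243 TPM in Th17 WT (2.21, limma adjusted p = 0.0316). In Th1 it stood at 4.71, 4.85 and 6.29 TPM in KO against 0.263, 0.097 and 0.421 TPM in WT (2.32, limma adjusted p = 9.47e-05), where the WT values lie at or near the level of 3 reads. Creb3l1, an ER-bound transcription factor related to ATF6, was lower in both lineages, at 0.314 ± 0.261 TPM in Th17 KO and 2.69 ± 0.683 TPM in Th17 WT and at 0.623 ± 0.242 TPM in Th1 KO and 3.29 ± 0.276 TPM in Th1 WT. Its relative Creb3l2 and the HSF1-binding protein Hsbp1 were higher in Th1 KO, by 1.20 and 0.60 on the log2 scale. Atf4, the effector of the PERK arm and of amino acid shortage, averaged 225 ± 29.6 TPM in Th17 KO and 391 ± 34.9 TPM in Th17 WT (-0.80, limma adjusted p = 0.0472). Its target Trib3 averaged 26.2 ± 5.85 TPM in Th17 KO and 119 ± 69.9 TPM in Th17 WT (-1.995, limma adjusted p = 0.0386). In Th17, Atf4 and Trib3 thus had the sign opposite to that of Xbp1. Atf4 was not called with the block (adjusted p = 0.062). Uggt1, Wfs1, Creb3l1, Atf4, Trib3, Bag2 and Cct4, the genes named from these lists in Th17, each lost their call when KO replicate 1 or KO replicate 3 was left out, with adjusted p-values of up to 0.207 over all settings.

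Of 33 tested genes on a wider heat shock list, 0 were higher and 1 lower in Th17 KO, and 10 were higher and 2 lower in Th1 KO, with medians of 0.06 and 0.16 on the log2 scale. Bag2, an inhibitory Hsp70 co-factor, was lower in both lineages, at 16.4 ± 2.88 TPM in Th17 KO and 44.9 ± 15.0 TPM in Th17 WT and at 21.6 ± 6.01 TPM in Th1 KO and 44.2 ± 9.79 TPM in Th1 WT. Hspa4l, Hspb6 and the ubiquitin ligase Stub1 (CHIP) were higher in Th1 KO by 1.42, 0.90 and 1.00 on the log2 scale. Of 18 genes of the cytosolic chaperonin and of mitochondrial folding and import, 0 were higher in either lineage, 1 was lower in Th17 KO and 3 in Th1 KO. Cct4, a chaperonin subunit, was lower in both, at 246 ± 17.998 TPM in Th17 KO and 458 ± 14.0 TPM in Th17 WT and at 286 ± 39.5 TPM in Th1 KO and 456 ± 98.3 TPM in Th1 WT. Hscb, a mitochondrial iron-sulfur co-chaperone, averaged 24.4 ± 0.793 TPM in Th1 KO and 52.3 ± 3.18 TPM in Th1 WT, and the import factor Timm44 fell by 0.51 on the log2 scale. Of the 19 genes named from these lists in Th1, 13 kept their call whichever library was left out; the exceptions were Hsbp1, Tmed10, Cct4, Timm44, Hspb6 and Stub1, with adjusted p-values of up to 0.112 over all settings. Of those 13, Srpr, Sec61a1, Calu and Dnajc10 were not called with all 12 libraries in the fit (adjusted p = 0.108, 0.179, 0.0668 and 0.0503).

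The calls can be set beside the sequences shown at the start. In Th1 KO against Th1 WT, 7 of the 8 genes with an ER stress element were higher, Canx being the exception, and 6 of the 19 with upstream sequence and no such element. Of all 8855 tested genes with upstream sequence, 1710 were higher. The median log2 fold change was 0.86 with the element and 0.33 without it, and 0.07 over all those genes. Most genes with the element are ER chaperones or isomerases, so element and role cannot be told apart. In Th17, 0 of the 8 were called, with a median of 0.67, while 2 of the 19 without the element were higher, with a median of 0.36. Of all 9102 genes with upstream sequence tested in Th17, 452 were higher, and the median was 0.11. Among 9 other tested genes that carry the element, 2 were higher in Th1 KO, Derl3 and Ero1b, and 3 were lower, the close paralogs Xlr3a, Xlr3b and Xlr3c, whose single values are uncertain. Derl3, a channel component of ER-associated degradation, averaged 7.26 ± 0.889 TPM in Th1 KO and 2.74 ± 1.30 TPM in Th1 WT (1.19 ± 0.25, limma adjusted p = 0.0065), and Ero1b, which oxidises PDI, 7.57 ± 1.03 TPM in Th1 KO and 3.15 ± 0.593 TPM in Th1 WT (1.05 ± 0.18, limma adjusted p = 0.0026). Their elements, chosen for print after these values were seen, are given in the same form as before.
Derl3 (chr10:75893236-75893266, plus strand, -156 to -138): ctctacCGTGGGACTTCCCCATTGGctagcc
Ero1b (chr13:12565676-12565706, plus strand, -201 to -183): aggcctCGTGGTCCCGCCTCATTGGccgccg

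Markers of other cells differed between the same groups. Beside their counts stand the shares over all genes tested, 4.60% higher and 2.70% lower in Th17 KO. In Th1 KO these shares were 17.6% higher and 13.7% lower. Summed over 6 gamma delta T cell markers they stood at 165 to 260.2 TPM in Th17 KO against 17.4 to 20.4 TPM in Th17 WT, and at 172 to 269 TPM in Th1 KO against 14.0 to 33.6 TPM in Th1 WT, with all 4 tested markers higher in both lineages. Summed over 12 markers of B and plasma cells, whose ER is dense, they stood at 139 to 215.5 TPM in Th17 KO against 117 to 157 TPM in Th17 WT, and at 105 to 561 TPM in Th1 KO against 101.02 to 122 TPM in Th1 WT, with 2 of 8 tested markers higher in Th17 KO and 3 of 9 in Th1 KO. Th1 KO replicate 3 had the lowest sum of its group, Jchain at 0 and Igkc at 29.1 TPM, against 228 and 328 TPM of Igkc in replicates 1 and 2 of Th1 KO. The summed level of the 9 ER chaperones was 3585, 3833 and 3836 TPM in Th1 KO replicates 1, 2 and 3. Myeloid markers summed to 47.1 to 68.2 TPM in Th17 KO against 12.4 to 14.6 TPM in Th17 WT and to 25.2 to 46.1 TPM in Th1 KO against 10.8 to 14.0 TPM in Th1 WT, with 4 of 6 and 2 of 3 tested markers higher. Markers of CD8 and natural killer cells summed to 90.7 to 108 TPM in Th17 KO against 49.1 to 64.2 TPM in Th17 WT and to 195 to 283 TPM in Th1 KO against 62.1 to 78.5 TPM in Th1 WT, with 2 of 6 tested markers higher in Th17 KO and, in Th1 KO, 4 higher and 2 lower of 6. Immediate early genes, sensitive to handling, were higher for 7 of 20 tested in Th17 KO (4.60% of all genes) and for 15 of 21 in Th1 KO (17.6% of all genes), where 1 was lower. Ifng, a secreted product of Th1 cells, stood at 6739 to 8709 TPM in Th1 KO against 487 to 1115 TPM in Th1 WT. The part of any of these in the changes of the 35 genes was not tested.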

How the data were processed

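The authors deposited 1 table per lineage with TPM, named so in the tables, which sum to 1000000 in every library; per the file headers, each row also gives coordinates and combined exon length. Per the submitters' processing notes, the build was GRCm38.p6 and the tools were STAR 2.7.2b, featureCounts 1.6.4, cutadapt, bcl2fastq 2.20.0.422 and DESeq2 1.24.0, with no role given. Per the labels' protocols, SMART-Seq cDNA was tagmented with Nextera XT and read from 1 end, which marks no strand. TPM times exon length gave whole reads within 0.02 for 100.0% of values.

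The test was limma 3.58.1 (R 4.3.3, mean-variance trend, two-sided) on log2(TPM + 1), for genes that reached 1 TPM in 3 or more of the libraries fitted. Genotypes were compared on the 6 libraries of a lineage, and the difference of effects and the lineages on all 12. Gene lists, the 35 genes included, were chosen with earlier results of these data known. Named beside the 35 are 2 genes with the element chosen after their values were seen, the 4 genes per list and genotype comparison with the smallest adjusted p that passed, and Slc2a3. Alternatives were a pseudocount of 0.25, no filter, a replicate block, median-of-ratios scaling, voom on recovered reads, all 12 libraries and each library left out. Removing the exon length trend was chosen after seeing the data. The steps were tested on simulated data.

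Replicate numbers recur in every group. Deviations of same-numbered libraries from their group means correlated at 0.14, 0.41 and 0.23 between Th17 KO and Th17 WT, and at 0.72, 0.26 and 0.53 between Th17 WT and Th1 WT, all above 0.1, and were taken as paired there on this alone. Some differently numbered libraries also passed 0.1. These were Th17 KO replicate 3 with Th17 WT replicate 1 (0.105), and replicates 2 and 3 across the WT groups (0.28 and 0.21). The remaining differently numbered pairs of these groups stood at 0.092 or below. Same-numbered libraries correlated at 0.16, 0.21 and -0.07 in Th1, and at 0.22, -0.04 and -0.19 between the KO groups, which were not taken as paired.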

Additional observations from a re-analysis of the deposited data

How the results depend on the processing

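The count of called genes among the 35 in Th17 KO against Th17 WT was 2 as reported and 2 with a pseudocount of 0.25. It was 0 without the filter and with median-of-ratios scaling, 1 with the replicate block (Pdia3 lost), 1 (Hspa8) with voom, 6 with the exon length trend removed and 8 with all 12 libraries in the fit, and 0 to 7 over the fits that left out 1 library each. Over all genes in that comparison it was 1009 as reported, 1399 with the replicate block, 1901 with the length trend removed, 2933 with all 12 libraries and 109 to 2158 with 1 library left out. In Th1 the count among the 35 was 17 as reported, 13 without the filter, 10 with all 12 libraries and 12 to 19 with 1 left out; over all genes it was 4220 as reported, 2568 with all 12 and 2594 to 4587 with 1 left out. The replicate block left 16 in Th1, Hsp90ab1 being lost, and changed no other call among the 35 genes. Why these counts moved was not tested; leaving out libraries leaves fewer samples. Calls of Hspa5, Hsp90b1, Dnajb11, Dnajc3, Manf, Creld2, Pdia3, Pdia4 and Pdia6 in Th1, 9 of 17, held under all settings tried. Dnajb9, Xbp1, Edem1 and Hsp90ab1 each lost theirs under 6 to 8 of 13. Hyou1, Syvn1 and Calr lost theirs only with all 12 libraries in the fit (limma adjusted p = 0.345, 0.278 and 0.0832). For the difference between lineages the count over all genes was 93 as reported, 59 with a pseudocount of 0.25, 148 with the length trend removed and 21 to 171 with 1 library left out, and 0 of the 35 throughout. Between the KO groups it was 1 of 35 as reported, 3 with the length trend removed and 0 to 2 with 1 left out, and 861 genes as reported with 449 to 1219; between the WT groups 529 genes as reported with 309 to 403. Median-of-ratios scaling turned the split of higher and lower genes between the KO groups to 470 and 564, against 488 and 373, and between the WT groups to 217 and 366, against 270 and 259. No call among the 35 changed sign; over 2365 single values, 54 calls were lost, 24 gained, and 179 uncalled values changed sign. The median log2 value of all genes between the KO groups was -0.04 with median-of-ratios scaling, against 0.12 as reported, and in Th17 KO against Th17 WT -0.10 with voom, against 0.04. With voom the split for the difference between lineages was 47 and 19, against 51 and 42. Fits with 2 libraries in a group assume that they vary like the rest.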
